A study of Mus musculus with 12 samples.

Results

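The expression of 40 genes of the oligodendrocyte lineage and of myelin was described in the medial prefrontal cortex (PFC) of mice that carry or lack the Src-family kinase Fyn, after saline or an anesthetic dose of ethanol. The genes were chosen by name, with earlier results of these data known. From textbook knowledge 7 were assigned to precursors, 10 to differentiation and 23 to mature myelin, and this split was not tested here. Of these 40 genes, 38 had a probe set annotated to that gene alone, among 18193 such genes on the array, and 37 passed the level filter, among 12323 genes tested. The control stock was B6129SF2/J, and the Fyn-null stock, B6;129S7-Fyntm1Sor/J, carries a targeted null allele of Fyn in the germline. The mice were males of 12 weeks, habituated to injections with saline, and were killed 4 h after they received either saline or ethanol at 3 g/kg (20% v/v). Each combination of genotype and treatment was a group of 3 Affymetrix whole-genome mouse arrays (12 in all), and every array held RNA pooled from 3 mice of its group. The genotypes were separate stocks, so an effect of Fyn and a difference of stock cannot be told apart. All values are log2 RMA values, a log2 scale of background-corrected, normalized hybridization signal, and a difference of 1 is a doubling.

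Oligodendrocytes arise from precursor cells that carry the PDGF receptor Pdgfra and the proteoglycan Cspg4, pass through a premyelinating stage and then wrap axons in sheaths of lipid-rich membrane that are compacted by proteins such as Mbp. In adult cortex precursors keep dividing and new myelin is still formed. Fyn is active in oligodendrocytes, where it acts downstream of integrins and of axonal contact, drives the outgrowth of processes and releases Mbp mRNA for local translation. Mice without Fyn are known to have less forebrain myelin. The comparisons below address whether myelin genes differ with genotype at baseline, whether they respond to ethanol, and whether that response depends on Fyn.

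Fyn itself was read first as a check of the labels. Its brighter probe set lay between 9.33 and 9.70 in the control ethanol pools and between 8.75 and 9.01 in the Fyn-null ethanol pools, without overlap. Among saline pools, control replicates 1 and 3 (9.31 and 9.65) lay above Fyn-null replicates 2 and 3 (8.89 and 8.64), but a pool of each genotype had a level of the other. Replicate 2 of the pools labelled control saline was at 8.74, and replicate 4 of those labelled Fyn-null saline was at 9.45. The dimmer Fyn probe set overlapped between genotypes after ethanol, at 7.80 to 7.95 in control and 7.62 to 7.81 in Fyn-null pools. At the brighter one the genotype difference was -0.24 after saline (SE 0.23, adjusted p = 0.9999) and -0.65 after ethanol (SE 0.23, adjusted p = 0.241). Neither passed the test, so Fyn's level is no clean mark of genotype here. Genotype results below are also given without these 2 pools, called the doubted pools, where that changes a call. A measure of RNA integrity and markers of other cell types moved with ethanol. The log2 ratio of the 3′ to the 5′ Gapdh control probe sets, a sign of RNA integrity and labelling, was 0.106 to 0.529 in the saline pools and -0.045 to 0.105 in the ethanol pools, so that the groups nearly touched. The same ratio for actin was 0.977 to 1.454 in the saline and 0.706 to 1.150 in the ethanol pools, with overlap. All 5 endothelial markers were below 0 with ethanol over both genotypes, and 4 passed the test (Slco1c1, Cldn5, Flt1 and Tek). The mean of the 5 lay between 7.25 and 7.46 after saline and between 6.63 and 7.01 after ethanol. Of 5 microglial markers 4 were below 0 (median -0.13), and Aif1 alone passed (-0.44). None of 6 neuronal, 5 astrocytic, 2 striatal and 1 choroid plexus markers tested passed the test. The part of RNA integrity and of vascular cells in the ethanol results was not tested, apart from a fit that also holds the 3′ to 5′ ratio. The Gapdh ratio, used in that fit, did not overlap between the treatments, so the fit cannot fully tell the ratio and ethanol apart. A call can be lost in it through a larger SE alone, with the difference unchanged. Where that fit ends a call, its value is given beside it.

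All 6 markers set to define the lineage (Mog, Mag, Mobp and Cnp for mature cells, Pdgfra and Cspg4 for precursors) passed the level filter. Few of the 37 genes differed between groups past the threshold, a Benjamini-Hochberg adjusted p under 0.05 over all 24770 probe sets tested with limma. None did so between genotypes after saline (background over all genes tested 0%) or after ethanol (0%), over both treatments (0%), or in the interaction of genotype and ethanol (0%). At an unadjusted p under 0.05 these comparisons had 1, 5, 5 and 0 of the 37 genes, against 1.49%, 12.9%, 9.89% and 3.85% of all genes. Ethanol changed 1 of the 37 in controls (background 1.45%) and 1 in Fyn-null mice (0.511%), in both cases Mal. Over both genotypes, with 6 pools on each side, it changed 3 (background 6.69%), of which Mal rose (background for rises 1.89%) and Car2 and Evi2a fell (background for falls 4.8%). As shares of the 37 genes, these counts lay near the background.

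The stages as a whole moved little. The mean level over the 22 mature myelin genes was 7.61 ± 0.033 in control saline, 7.64 ± 0.043 in control ethanol, 7.57 ± 0.063 in Fyn-null saline and 7.60 ± 0.083 in Fyn-null ethanol pools (SD, n = 3). For the 8 differentiation genes the 4 means lay between 7.62 and 7.67, and for the 7 precursor genes between 7.20 and 7.27. The groups overlapped in the mature and the differentiation genes. For the precursor genes the control saline pools (7.24 to 7.29) lay above the control ethanol pools (7.17 to 7.23) and above the Fyn-null saline pools (7.16 to 7.24), while the other comparisons of that stage overlapped. In whole tissue, fewer cells of a type and less RNA per cell cannot be told apart.

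**Figure D1:**
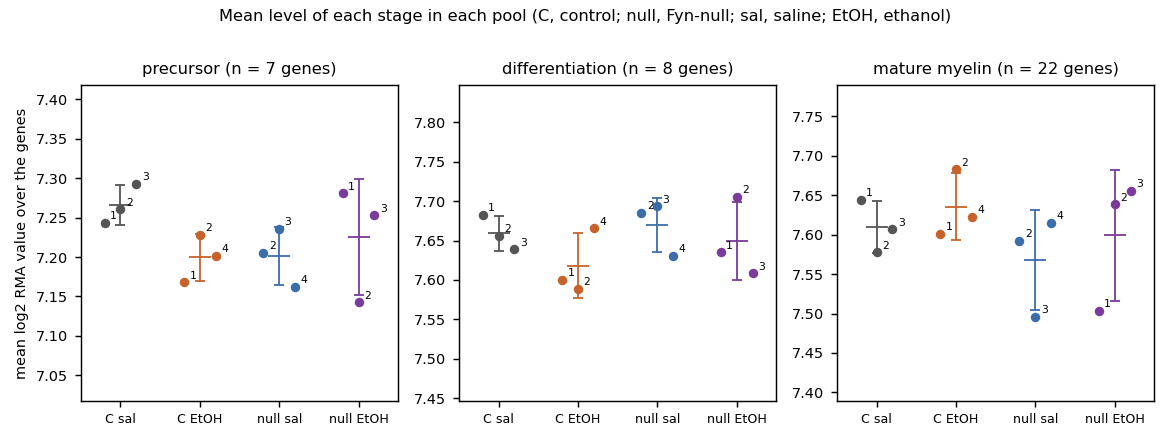
Mean log2 RMA value over the tested genes of each stage (vertical axis) in each of the 12 pools (points, numbered by replicate), by group, with the mean and SD of the 3 pools. The mature myelin means lie between 7.50 and 7.68, and the lowest pools are Fyn-null saline replicate 3 and Fyn-null ethanol replicate 1.

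Among pools of a group, mature myelin genes deviated together in places. In Fyn-null ethanol replicate 1, 18 of the 22 mature genes lay below their group mean, by 0.096 on average, where 32.6% of all genes did. In Fyn-null saline replicate 3, 17 of the 22 did, by 0.072 on average, where 44.2% of all genes did. Neither of these is one of the pools in doubt. A spread of this kind enters the standard error of each gene below. Counts and medians over several genes carry no standard error and do not allow for it.

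Mal, a proteolipid that sorts lipids and proteins to the myelin membrane, rose with ethanol in both genotypes. It was 8.21, 8.04 and 8.18 after saline (replicates 1, 2 and 3) and 8.64, 8.75 and 8.57 after ethanol (replicates 1, 2 and 4) in controls. In Fyn-null mice it was 7.94, 7.98 and 8.16 after saline (replicates 2, 3 and 4) and 8.52, 8.57 and 8.65 after ethanol (replicates 1, 2 and 3), and pools are given in this order throughout. Every ethanol pool lay above every saline pool. The difference was 0.51 in controls (SE 0.087, adjusted p = 0.0190) and 0.55 in Fyn-null mice (SE 0.087, adjusted p = 0.0175), and the interaction was 0.04 (SE 0.12, adjusted p = 0.999). Over both genotypes it was 0.53 (SE 0.059, adjusted p = 0.000348), a 1.44-fold rise. With the 3′ to 5′ ratio in the model the difference over both genotypes was 0.58 (SE 0.089, adjusted p = 0.0168). Those within controls (0.56, SE 0.115, adjusted p = 0.115) and within Fyn-null mice (0.59, SE 0.107, adjusted p = 0.0743) no longer passed. Without both doubted pools the value in controls was 0.46 (adjusted p = 0.0523).

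The other probe set of Mal moved the same way. It was 7.58, 7.44 and 7.18 in control saline, 8.65, 8.25 and 8.14 in control ethanol, 7.35, 7.16 and 7.21 in Fyn-null saline and 7.67, 7.92 and 7.61 in Fyn-null ethanol pools. Its ethanol difference was 0.95 in controls (SE 0.14, adjusted p = 0.0113) and 0.49 in Fyn-null mice (SE 0.14, adjusted p = 0.198). With the 3′ to 5′ ratio in the model the value in controls was 0.78 and no longer passed (adjusted p = 0.143), and the one over both genotypes went from 0.72 to 0.54 (adjusted p = 0.206). After ethanol its Fyn-null pools all lay below the control pools, by -0.61 (SE 0.14, adjusted p = 0.129), a gap that the brighter probe set did not show (-0.07). The interaction at this probe set was -0.45 (SE 0.20, adjusted p = 0.992).

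Mobp, a small basic protein that compacts the cytoplasmic side of myelin, gave an answer that depended on the probe set. The brightest, which stands for the gene, was 8.64, 8.77 and 8.61 in control saline and 8.78, 9.04 and 8.73 in control ethanol pools. In Fyn-null pools it was 8.74, 8.57 and 8.90 after saline and 8.58, 8.77 and 8.91 after ethanol, and its ethanol difference over both genotypes was 0.10 (SE 0.082, adjusted p = 0.508). The probe set 1436263_at was 6.94, 7.20 and 6.84 in control saline pools and 8.08, 8.12 and 7.68 in control ethanol pools. In Fyn-null mice it was 6.82, 6.81 and 6.94 after saline and 7.84, 8.15 and 8.01 after ethanol. No ethanol pool came near a saline pool. The rise was 0.97 in controls (SE 0.13, adjusted p = 0.00727), 1.15 in Fyn-null mice (SE 0.13, adjusted p = 0.00217) and 1.06 over both (SE 0.093, adjusted p = 5.93e-05), or 2.08-fold. By unadjusted p this was the 13th of the 24770 probe sets in the ethanol comparison over both genotypes. With the 3′ to 5′ ratio in the model it was 1.04 over both genotypes (adjusted p = 0.00916) and 1.12 in Fyn-null mice (adjusted p = 0.0268), while the value in controls, 0.94, did not pass (adjusted p = 0.0868). Without both doubted pools it was 1.13 over both (adjusted p = 0.000165).

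A further Mobp probe set, 1450088_a_at, was 6.59, 6.50 and 5.98 in control saline, 7.13, 7.18 and 7.26 in control ethanol, 6.23, 5.90 and 6.30 in Fyn-null saline and 6.61, 7.00 and 7.02 in Fyn-null ethanol pools. It rose by 0.78 over both genotypes (SE 0.11, adjusted p = 0.00194) and was at 0.46 with the ratio in the model (adjusted p = 0.162). The fourth tested one, 1421010_at, was at 0.42 (SE 0.12, adjusted p = 0.0615). All 4 differences were above 0, and they ran from 0.10 to 1.06 for transcripts under 1 gene symbol. Which transcripts or which stretch of the mRNA each probe set reads was not analysed here.

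**Figure D2:**
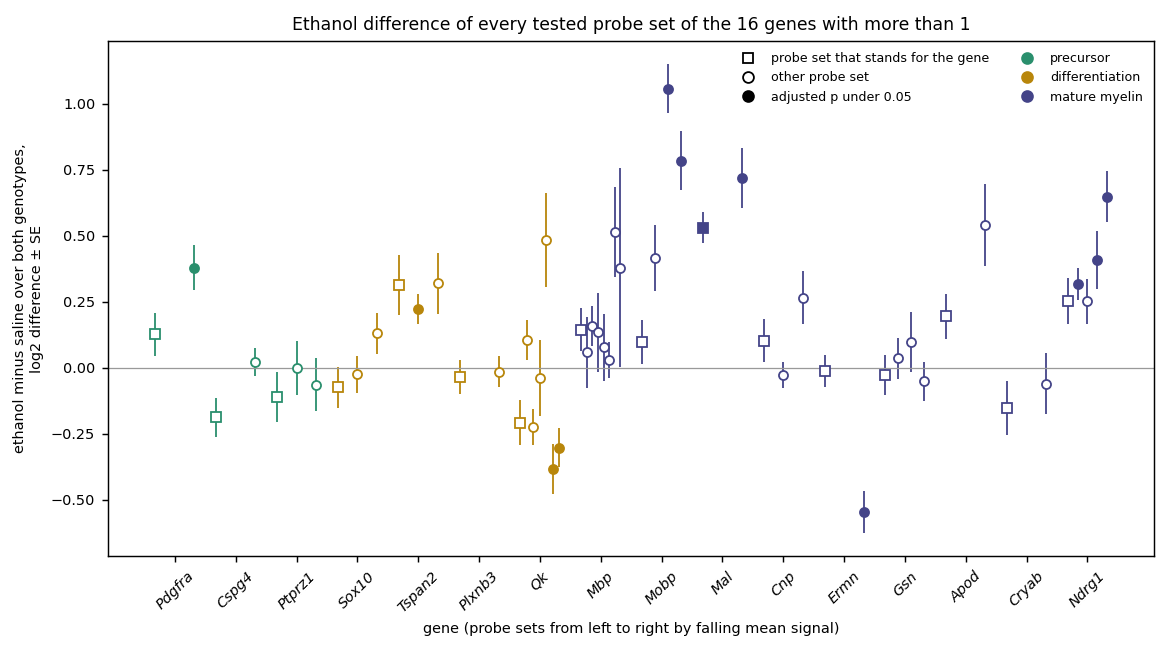
Ethanol minus saline over both genotypes, as a log2 difference with its SE (vertical axis), for each of the 54 tested probe sets of the 16 genes that had more than 1. Filled symbols passed the test. Mobp runs from 0.10 to 1.06 and Ermn from -0.01 to -0.55, while both probe sets of Mal are above 0.5.

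Disagreement between probe sets was common among the multi-probe genes. Of 16 genes with more than 1 tested probe set (54 probe sets), 6 had one that lay over 0.3 from the representative in the ethanol comparison over both genotypes, and 9 did in the ethanol response of controls. Counted by probe set, 14 of 75 passed the test over both genotypes (background 6.81%), 9 higher and 5 lower. Counted as genes with any probe set that passed, 9 of 37 did, where 10.4% of all genes did. These were Mal, Mobp, Ndrg1, Pdgfra and Tspan2 with rises and Qk, Ermn, Car2 and Evi2a with falls. A gene with more probe sets has more chances to be counted in this way.

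Ndrg1, a stress-responsive cytoplasmic protein of myelinating glia, had 5 tested probe sets, all with ethanol differences above 0 over both genotypes. Its representative was 7.95, 7.70 and 8.14 in control saline, 8.12, 7.98 and 7.94 in control ethanol, 7.71, 7.68 and 7.85 in Fyn-null saline and 8.24, 8.09 and 8.16 in Fyn-null ethanol pools. The groups overlapped in controls but not in Fyn-null mice, where the difference was 0.42 (SE 0.11, adjusted p = 0.149). By contrast the probe set 1423413_at was 6.04, 5.70 and 6.12 in control saline, 6.81, 6.56 and 6.89 in control ethanol, 6.09, 5.88 and 5.79 in Fyn-null saline and 6.54, 6.41 and 6.30 in Fyn-null ethanol pools. It rose in controls by 0.79 (SE 0.13, adjusted p = 0.0155) and over both genotypes by 0.65 (SE 0.097, adjusted p = 0.00246). Probe sets 1420760_s_at and 1450977_s_at rose over both genotypes by 0.32 and 0.41 (adjusted p = 0.00968 and 0.0426). By Affymetrix naming the suffixes _s_at and _x_at, the latter on the representative, mark probes that can also match other transcripts. With the 3′ to 5′ ratio in the model the 3 probe sets were at 0.65, 0.39 and 0.09, and none passed (adjusted p = 0.0948, 0.0863 and 0.817), nor did 1423413_at in controls (0.82, adjusted p = 0.131). Probe set 1450977_s_at did not pass without both doubted pools either (0.36, adjusted p = 0.116).

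Car2, a cytosolic carbonic anhydrase of oligodendrocytes, fell with ethanol. It was 9.45, 9.29 and 9.46 in control saline, 9.16, 9.12 and 9.26 in control ethanol, 9.33, 9.37 and 9.28 in Fyn-null saline and 9.18, 9.19 and 9.05 in Fyn-null ethanol pools. All ethanol pools lay below all saline pools. The difference over both genotypes was -0.20 (SE 0.054, adjusted p = 0.0396), and with the ratio in the model it was -0.21 (SE 0.082, adjusted p = 0.329).

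Evi2a, a membrane protein encoded within an intron of Nf1, was 6.11, 6.39 and 6.34 in control saline, 5.87, 5.98 and 6.17 in control ethanol, 6.34, 6.14 and 6.08 in Fyn-null saline and 5.81, 6.02 and 5.92 in Fyn-null ethanol pools. It fell by 0.27 over both genotypes (SE 0.075, adjusted p = 0.0474), with overlap between control ethanol replicate 4 and 3 saline pools. With the ratio in the model it was at -0.29 (SE 0.116, adjusted p = 0.336), and without both doubted pools at -0.27 (adjusted p = 0.0826). Bcas1, which marks newly formed oligodendrocytes, also had all ethanol pools below all saline pools, at -0.17 (SE 0.052, adjusted p = 0.0702). In all, 3 of the 37 genes (Mal, Car2 and Bcas1) parted the 6 ethanol from the 6 saline pools, where 4.55% of all genes did.

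Ermn, an actin-binding protein of the mature sheath, fell at its dimmer probe set only. This was 6.37, 6.29 and 6.24 in control saline, 5.44, 5.92 and 5.73 in control ethanol, 5.95, 6.00 and 6.05 in Fyn-null saline and 5.37, 5.54 and 5.66 in Fyn-null ethanol pools. The difference was -0.61 in controls (SE 0.12, adjusted p = 0.0283) and -0.55 over both genotypes (SE 0.081, adjusted p = 0.00224). With the ratio in the model neither passed, at -0.68 (SE 0.155, adjusted p = 0.138) and -0.61 (SE 0.123, adjusted p = 0.0615). Without both doubted pools the value in controls did not pass (adjusted p = 0.0740), and the one over both genotypes did (adjusted p = 0.0127). The brighter probe set was at -0.01 (SE 0.061).

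Of the other genes with the smallest p in an ethanol comparison, Hapln2, a link protein of the perinodal matrix, was 5.04, 4.93 and 5.06 in control saline and 5.29, 5.33 and 5.47 in control ethanol pools, a difference of 0.35 (SE 0.12, adjusted p = 0.154). In Fyn-null mice it was 5.11, 5.10 and 5.30 after saline and 4.90, 5.38 and 5.35 after ethanol, with overlap (0.04). Apod, a lipid-binding lipocalin, was 9.78, 9.60 and 9.42 in Fyn-null saline and 9.98, 9.76 and 10.05 in Fyn-null ethanol pools (0.33, SE 0.11, adjusted p = 0.283), and 9.56, 9.39 and 9.69 against 9.67, 9.62 and 9.53 in controls (0.06). Its dimmer probe set, 1444564_at, was at 0.63 in Fyn-null mice (SE 0.23, adjusted p = 0.296), 0.45 in controls (SE 0.23, adjusted p = 0.3001) and 0.54 over both (SE 0.16, adjusted p = 0.0540). Neither gene passed the test. Tspan2, a tetraspanin of early myelination, was 7.66, 7.41 and 7.08 in control saline, 7.54, 7.70 and 7.999 in control ethanol, 7.44, 7.46 and 7.03 in Fyn-null saline and 7.55, 7.71 and 7.46 in Fyn-null ethanol pools. Its difference over both genotypes was 0.31 (SE 0.11, adjusted p = 0.106), and its probe set 1424568_at rose by 0.22 (SE 0.055, adjusted p = 0.0322), but did not pass with the ratio in the model (0.19, adjusted p = 0.377) or without both doubted pools (0.23, adjusted p = 0.0636).

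**Figure D3:**
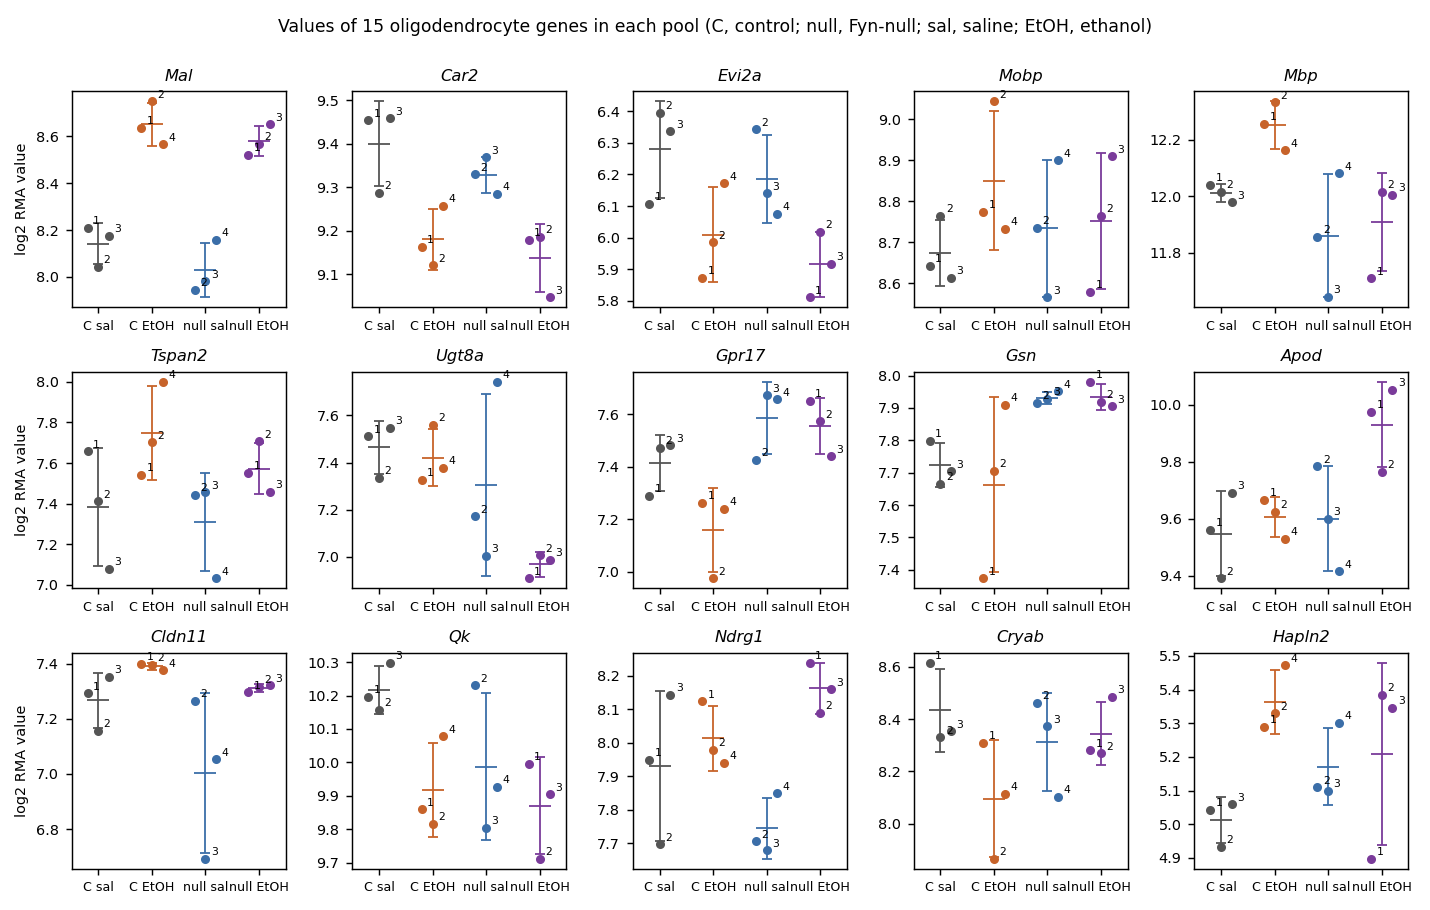
Log2 RMA values (vertical axis, a separate scale for each gene) of the representative probe set of 15 genes in the 12 pools, numbered by replicate, with the mean and SD of each group. Mal and Car2 part the ethanol from the saline pools in both genotypes, and Ugt8a parts the genotypes after ethanol.

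Mal and Mobp, which had probe sets that rose with ethanol in both genotypes, and Hapln2, whose window holds all 3 motifs searched first, are shown with the 250 bases before their annotated start (RefSeq, GRCm38.p6, on the gene's strand, 5′ to 3′). The motifs were CTGGNAC for Myrf, AACAAT for SOX factors and the E-box CAGCTG, each on both strands. Capitals mark matches (in the Hapln2 window GTGCCAG is the Myrf motif on the opposite strand), and in the Mobp window they mark CTTTGT, a core letter run of HMG-box factors that was added after this window had been read. Of the 40 genes, 27 have such a window, 34 windows in all.
Mal, chr2:127656696-127656945, minus strand: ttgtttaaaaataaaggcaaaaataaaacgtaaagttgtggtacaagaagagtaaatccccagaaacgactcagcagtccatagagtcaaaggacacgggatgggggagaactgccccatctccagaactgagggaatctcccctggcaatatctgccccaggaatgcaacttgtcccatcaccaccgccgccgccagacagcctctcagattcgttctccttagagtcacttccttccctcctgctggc
Mobp, chr9:120149492-120149741, plus strand: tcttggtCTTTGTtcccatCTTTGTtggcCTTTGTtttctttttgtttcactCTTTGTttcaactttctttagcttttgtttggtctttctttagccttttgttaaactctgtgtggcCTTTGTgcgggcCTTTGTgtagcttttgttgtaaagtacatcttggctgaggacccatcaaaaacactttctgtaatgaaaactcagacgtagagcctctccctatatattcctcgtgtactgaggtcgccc
Hapln2, chr3:88027512-88027761, minus strand: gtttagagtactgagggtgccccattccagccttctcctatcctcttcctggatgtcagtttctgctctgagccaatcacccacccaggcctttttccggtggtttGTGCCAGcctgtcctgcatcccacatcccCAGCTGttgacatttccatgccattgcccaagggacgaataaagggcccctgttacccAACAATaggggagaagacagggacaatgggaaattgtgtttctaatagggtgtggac

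The Mal window holds none of these letters. The Myrf letters are in 9 of the 34 windows (26.47%), against 16.06% of the 32851 promoter windows of the same length, the SOX letters in 4 (11.76% against 9.42%), the E-box in 6 (17.65% against 13.0%) and CTTTGT in 8 (23.53% against 16.46%). The Mobp window holds CTTTGT 6 times, and 1 of all 32851 windows (0.00304%), the Mobp window itself, holds it as often. Because CTTTGT was picked after this window had been read, that share is a description and not a test. A match is a run of letters and not evidence of binding, and windows of 1 gene can overlap.

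The genotype comparison after ethanol held the largest genotype differences among these genes. Ugt8a, the ceramide galactosyltransferase that makes the galactolipids of myelin, was 7.33, 7.56 and 7.38 in control ethanol pools and 6.91, 7.01 and 6.99 in Fyn-null ethanol pools. The groups did not overlap, and the difference was -0.45 (SE 0.15, adjusted p = 0.226). After saline it was 7.51, 7.33 and 7.55 in control replicates 1, 2 and 3 and 7.17, 7.00 and 7.74 in Fyn-null replicates 2, 3 and 4. The highest of all 12 values was thus that of the pool labelled Fyn-null saline replicate 4, whose Fyn level lay with the controls. Over both treatments the difference was -0.31 (SE 0.11, adjusted p = 0.367). Without that pool it was -0.42 (adjusted p = 0.0377), and without both doubted pools it was -0.45 (SE 0.065, adjusted p = 0.00464), while after ethanol it was -0.45 (adjusted p = 0.0408). Ugt8a was the only one of the 37 genes that passed a genotype comparison when both pools were left out. In that fit 669 of all 24770 probe sets passed over both treatments and 260 after ethanol, against 0 in each with all pools kept. The pools were picked by their Fyn level after the data had been seen. That choice favours genes that vary with Fyn between pools, so these adjusted p are a description and not a test. With all pools kept and the gene's probe sets averaged, Ugt8a was at -0.18 over both treatments (adjusted p = 0.342). The other genes of myelin lipid synthesis, Gal3st1 (sulfatide), Fa2h (hydroxylated fatty acids) and Aspa (acetate from N-acetylaspartate), were at 0.02, 0.06 and -0.06 after ethanol.

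Mbp, the main compacting protein of myelin, was 12.26, 12.33 and 12.16 in control ethanol and 11.71, 12.02 and 12.01 in Fyn-null ethanol pools, without overlap (-0.34, SE 0.12, adjusted p = 0.226). After saline it was 12.04, 12.02 and 11.98 in controls and 11.86, 11.64 and 12.08 in Fyn-null pools (-0.15, SE 0.12, adjusted p = 1.00). This baseline value was -0.26 without both doubted pools (adjusted p = 0.678) and ran from -0.26 to -0.042 when 1 array was left out. Over both treatments it was at -0.25 (SE 0.082, adjusted p = 0.347), and at -0.31 without both doubted pools (adjusted p = 0.0631). Ethanol moved it by 0.24 in controls (SE 0.12, adjusted p = 0.284) and by 0.05 in Fyn-null mice. None of its 8 tested probe sets passed in any comparison. The most variable, 1425263_a_at, was 8.67, 8.52 and 7.03 in control ethanol and 7.02, 6.80 and 6.87 in Fyn-null ethanol pools (-1.18, SE 0.535, adjusted p = 0.358). After saline it was 7.59, 6.59 and 7.80 in control replicates 1, 2 and 3 and 6.30, 6.13 and 8.23 in Fyn-null replicates 2, 3 and 4. The low control and the high Fyn-null value are those of the pools in doubt. At some other probe sets these pools lay with their labelled genotype after saline. Gsn was at 7.67 in the doubted control pool (controls 7.67 to 7.80) and 7.95 in the doubted Fyn-null pool (Fyn-null 7.92 to 7.95). The dimmer Ermn probe set was at 6.29 (controls 6.24 to 6.37) and 6.05 (Fyn-null 5.95 to 6.05). Whether pools had been exchanged was not tested.

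The sheath and adhesion genes leaned one way after ethanol, with 9 of 11 below 0 in Fyn-null mice relative to controls and a median of -0.12, beside a median of 0.04 over all genes tested. The exceptions were Cnp (0.15), a phosphodiesterase of non-compact myelin, and Pllp, plasmolipin (0.06). The Cnp value is that of an _x_at probe set, and of the 3 tested for Cnp 2 were above 0 and 1 was below (-0.07). None of the 11 passed. They are not independent readings, since 18 of the 22 mature genes lay below their group mean in Fyn-null ethanol replicate 1. The count was no higher than at baseline, where 9 of the 11 were also below 0 (median -0.03, beside 0.01 over all genes). Over both treatments 8 were (median -0.09, beside 0.03). After ethanol the other groups of mature genes did not share the lean, with 2 of 4 lipid synthesis genes and 3 of 7 remaining mature genes below 0 (medians -0.02 and 0.15). Markers of other cell types moved in the same comparison, none past the threshold. Of 6 neuronal markers 4 were below 0, with Slc17a7 at -0.48 and Gad1 at -0.25. All 5 astrocytic (median 0.19), all 5 endothelial (0.19) and 4 of 5 microglial markers (0.26) were above 0. The mean microglial level was 7.47 to 7.59 in control ethanol and 7.59 to 7.80 in Fyn-null ethanol pools, the endothelial 6.63 to 6.89 and 6.87 to 7.01, the astrocytic 8.79 to 8.996 and 8.87 to 9.13, and the neuronal 11.31 to 11.40 and 11.19 to 11.34. Their part in the difference was not tested. Across the whole set 19 of 37 were below 0 (median -0.03), and 8 parted the genotypes after ethanol without overlap, where 20.9% of all genes did.

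On the other side, Gpr17, a receptor that holds newly committed oligodendrocytes back from maturation, was 7.26, 6.98 and 7.24 in control ethanol and 7.65, 7.57 and 7.44 in Fyn-null ethanol pools (0.40, SE 0.11, adjusted p = 0.163). After saline it was 7.29, 7.47 and 7.48 in controls and 7.43, 7.67 and 7.66 in Fyn-null pools, with overlap (0.17). Over both treatments it was at 0.28 (SE 0.078, adjusted p = 0.321). Gsn, the actin-severing protein gelsolin, was 7.80, 7.67 and 7.70 in control saline, 7.92, 7.93 and 7.95 in Fyn-null saline, 7.37, 7.71 and 7.91 in control ethanol and 7.98, 7.92 and 7.90 in Fyn-null ethanol pools. Its difference over both treatments was 0.24 (SE 0.077, adjusted p = 0.336), but 0.02, 0.02 and 0.10 at its other 3 tested probe sets and 0.075 when the 4 were averaged. Neither passed. At the representative the 6 Gsn values of Fyn-null mice lay between 7.90 and 7.98, and those of controls between 7.37 and 7.91.

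**Figure D4:**
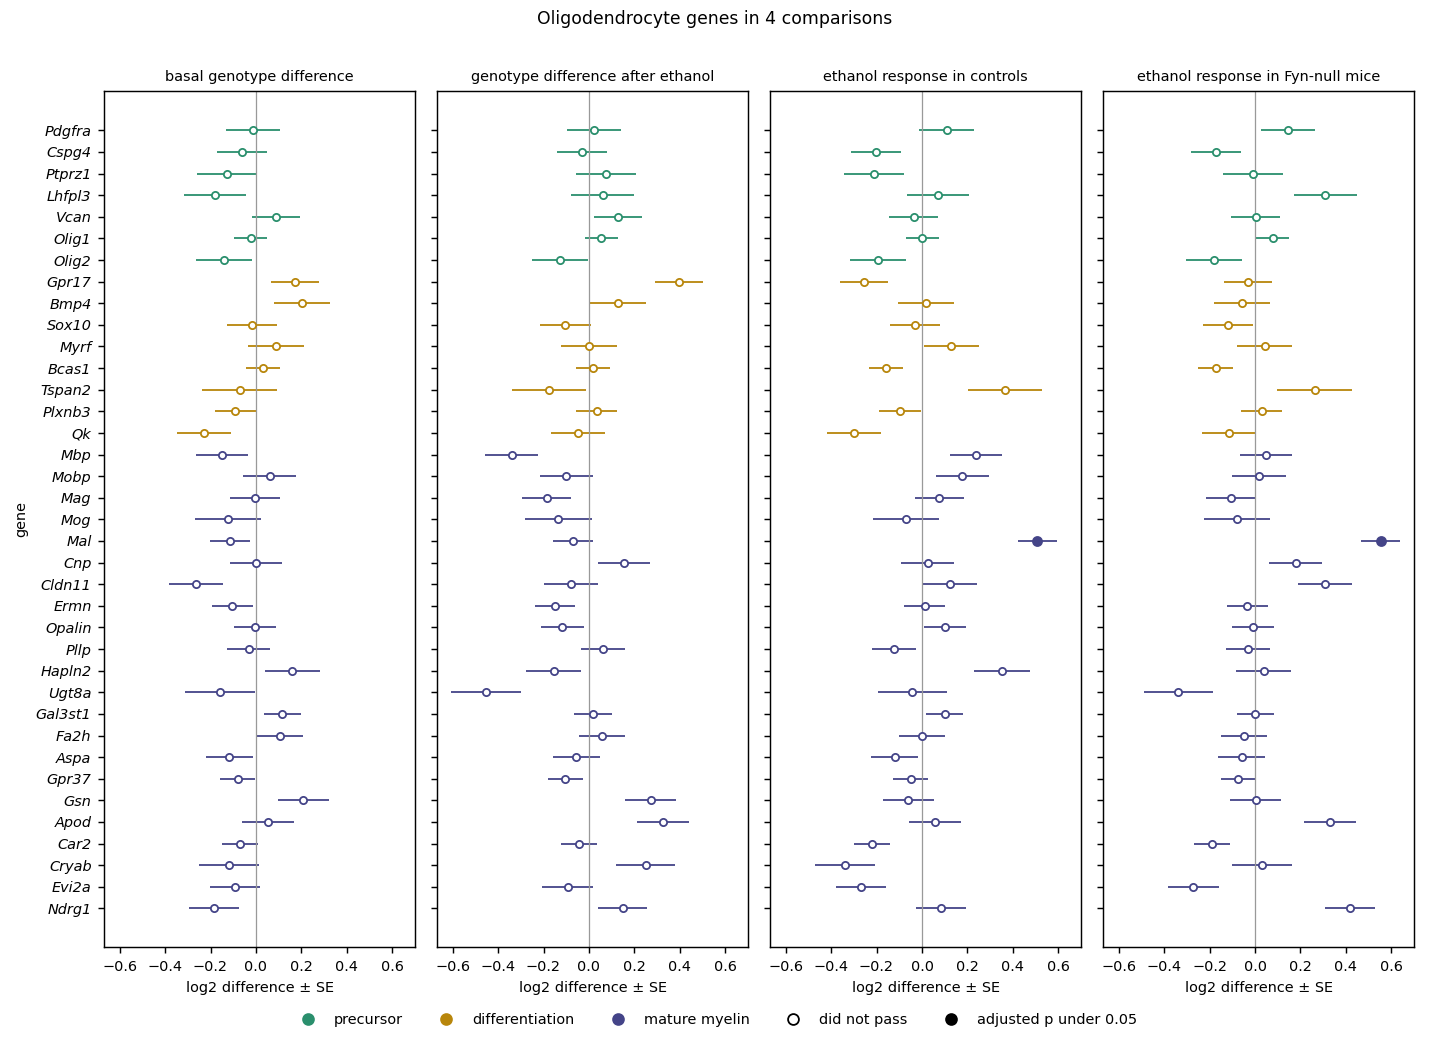
Log2 difference with its SE (horizontal axis) for the 37 tested genes (rows, by stage) in the 4 comparisons between groups. Filled points passed the test, which only Mal did, at 0.51 and 0.55 in the ethanol responses, and the lowest value is that of Ugt8a after ethanol (-0.45).

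At baseline, in saline-treated mice, the median of the 22 mature myelin genes was -0.08 in Fyn-null mice relative to controls and 16 of the 22 were below 0, beside a median of 0.01 over all genes. The 22 are not independent readings, since 17 of them lay below their group mean in Fyn-null saline replicate 3. Precursor genes had 6 of 7 below 0 (median -0.06) and differentiation genes 4 of 8 (median 0.01). No adjusted p was below 0.99, and the groups parted in 3 of the 37 genes (Gsn, Hapln2 and Olig2), where 5.29% of all genes did. Each side of this comparison held a doubted pool among its 3. Without both, 0 of the 37 genes and 44 of all 24770 probe sets passed. Cldn11 was then at -0.34, Mbp at -0.26, Mal and Qk at -0.23, Mobp at 0.02, Tspan2 at 0.08 and Gsn at 0.17. Cldn11, the claudin of the myelin tight junction, was 7.29, 7.16 and 7.35 in control and 7.26, 6.69 and 7.05 in Fyn-null saline pools (-0.26, SE 0.12, from -0.39 to -0.11 when 1 array was left out). After ethanol its pools lay close together, at 7.40, 7.40 and 7.38 in controls and 7.30, 7.32 and 7.32 in Fyn-null mice. Qk, the RNA-binding protein quaking, which handles myelin mRNAs, was 10.20, 10.16 and 10.30 in control and 10.23, 9.80 and 9.93 in Fyn-null saline pools (-0.23, SE 0.12, from -0.35 to -0.14 when 1 array was left out). Ethanol pools of Qk were 9.86, 9.82 and 10.08 in controls and 10.00, 9.71 and 9.90 in Fyn-null mice, and its ethanol difference over both genotypes was -0.21 (SE 0.085, adjusted p = 0.151). Its dimmer probe sets 1441964_at and 1429736_at fell by 0.38 and 0.30 (adjusted p = 0.0320 for each), while another, 1425597_a_at, was at 0.48 (adjusted p = 0.116). With the ratio in the model 1441964_at was at -0.21 (adjusted p = 0.562) and 1429736_at at -0.36 (adjusted p = 0.213), and without both doubted pools neither passed (adjusted p = 0.0973 and 0.0679).

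The difference between the 2 ethanol responses was tested as an interaction, and its smallest adjusted p among the 37 genes was 0.992. The 3 genes with the smallest unadjusted p were Ndrg1 (0.33, SE 0.15), Cryab (0.37, SE 0.19) and Hapln2 (-0.31, SE 0.17). Cryab, a small heat shock protein, was 8.62, 8.33 and 8.35 in control saline, 8.31, 7.87 and 8.12 in control ethanol, 8.46, 8.37 and 8.10 in Fyn-null saline and 8.28, 8.27 and 8.48 in Fyn-null ethanol pools. For Ndrg1 the direction depended on the probe set, since 1423413_at was at -0.30 (SE 0.18). The SE of an interaction was 0.153 in the median over all probe sets, and with 3 pools a group differences between responses more than 2 times that size, such as those of Ndrg1 and Cryab, did not pass.

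The precursor genes had no member past the threshold at the representative probe set. Over both genotypes their ethanol differences ran from -0.19 for Cspg4, the NG2 proteoglycan, and for the transcription factor Olig2 to 0.19 for the tetraspan gene Lhfpl3, with Olig1, the phosphatase Ptprz1, the receptor Pdgfra and the matrix proteoglycan Vcan between. The dimmer Pdgfra probe set 1421916_at rose by 0.38 (SE 0.086, adjusted p = 0.0219), with values of 5.31, 5.11 and 5.15 in control saline, 5.53, 5.54 and 5.88 in control ethanol, 5.31, 5.23 and 4.94 in Fyn-null saline and 5.45, 5.57 and 5.36 in Fyn-null ethanol pools. All its ethanol pools lay above all saline pools, while the brighter probe set was at 0.13 (SE 0.081). With the ratio in the model 1421916_at was at 0.21 (adjusted p = 0.504), and without both doubted pools at 0.30 (adjusted p = 0.0712). Ptprz1, at 0.08 between genotypes after ethanol, was at -0.32 (adjusted p = 0.338) and -0.23 (adjusted p = 0.520) at its other probe sets, 1427019_at and 1418690_at. Among differentiation genes, the transcription factors Sox10 and Myrf were at -0.07 and 0.09, the ligand Bmp4 at -0.02 and the semaphorin receptor Plxnb3 at -0.03. Nkx6-2, a homeodomain factor, was below the level filter in all pools (3.81 to 4.25). Trf, transferrin, was read only by a probe set annotated to Trf and Srprb together, which passed in no comparison (-0.13 with ethanol over both genotypes, adjusted p = 0.254), and Enpp2 was not analysed here. Among mature genes, the adhesion protein Mag, the surface antigen Mog, the paranodal membrane protein Opalin and the receptor Gpr37 lay between -0.07 and 0.05 with ethanol over both genotypes and between -0.19 and -0.10 between genotypes after ethanol. Cnp, Pllp, Gal3st1, Fa2h and Aspa lay between -0.09 and 0.10 with ethanol over both genotypes.

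Further oligodendrocyte genes outside the 40 also changed in few cases. Of 21 such genes 9 were tested and 1 passed, Cdc42ep1, which fell with ethanol over both genotypes by 0.47 (SE 0.098, adjusted p = 0.0155). Of 11 genes through which Fyn is regulated or signals in oligodendrocytes, all were tested and 1 passed, Csk, the kinase that inhibits Src-family kinases, which fell by 0.30 (SE 0.063, adjusted p = 0.0162). With ethanol over both genotypes 6.69% of all genes tested passed, 4.8% with a fall. The values of Cdc42ep1 and Csk with the 3′ to 5′ ratio in the model are not given here. Lingo1, a membrane inhibitor of oligodendrocyte differentiation, was at -0.33 in Fyn-null mice after ethanol (SE 0.075, adjusted p = 0.129).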

How the data were processed

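RNA of each pool was hybridized to 1 array, and the authors made the deposited log2 values per probe set with affy and RMA, per the submitters' processing notes. Software versions and the genome build were not given in the sources used here. Whether the batch correction described in the methods had been applied is not stated either. The study's S-scores need probe-level data and were not computed. Of 45037 probe sets other than controls, the 45% with the lowest mean over the 12 arrays were left out. The other 24770 entered a linear model in limma (version 3.58.1, under R 4.3.3, with moderated variances) on the 4 group means, and on additive terms for the comparisons over both treatments or genotypes. Benjamini-Hochberg adjustment ran over all of them in each comparison. The fit was tested on simulated data. Names came from the platform annotation, updated through RefSeq, and a gene was represented by its brightest probe set on average. The genes and lists were chosen with earlier results of these data known. Named with all their values are the genes that passed, the 3 with the smallest p in each comparison and the structural myelin genes Mbp, Mobp, Mal and Tspan2. Other probe sets are described for genes where one differs from the representative by over 0.3. CTTTGT, the 3′ to 5′ ratio in the model and leaving out both doubted pools were added after the data had been seen. Replicate numbers did not pair the arrays: of 13 same-numbered pairs 3 had a residual correlation over 0.1. Precision is limited by the number of pools, with a median SE of 0.108 for 3 against 3 pools and 0.0764 for 6 against 6. The labels give 12 mice per genotype and treatment, more than the 3 pools of 3 hold.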

Additional observations from a re-analysis of the deposited data

How the results depend on the processing

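Of 151 counts of passing genes under other settings, 119 stayed within 1.5 times the reported count, counts of 0 in both fits included. Of 1075 values for single genes or probe sets, 931 kept their call and direction, 125 lost and 7 gained a call, and 12 changed direction. A value that passed in neither fit was counted as kept, although it had no call to lose, so these shares overstate how stable the calls were. Of 420 medians over gene groups, 396 moved by less than the spread between pools. The ethanol response in controls had 0 genes with the replicate block, 0 with only the 2 groups compared, 0 with the 3′ to 5′ ratio in the model, 0 without both doubted pools and 3 (Mal, Mobp and Ndrg1) when a gene's probe sets were averaged. In Fyn-null mice it had 0 with the block, 0 with only the 2 groups compared, 0 with the ratio and 8 with array weights (Apod, Car2, Cldn11, Cnp, Evi2a, Lhfpl3, Mal and Ndrg1). Ethanol over both genotypes had 1 gene, Mal, with no level filter, with the replicate block and with the ratio, and 7 with averaged probe sets (Apod, Car2, Ermn, Mal, Mobp, Ndrg1 and Tspan2). The genotype difference after ethanol had 5 genes with array weights (Apod, Cryab, Gpr17, Mbp and Ugt8a) and 1 (Ugt8a) without both doubted pools, and genotype over both treatments had 1 (Ugt8a) without both. The array weights did not converge fully.

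Leaving out each array in turn gave 0 to 1 genes for the ethanol response of controls, 0 to 1 for that of Fyn-null mice, 0 to 1 for genotype over both treatments and 1 to 3 for ethanol over both genotypes. Mal lost its call in controls without control ethanol replicate 1 or 2 or control saline replicate 2 or 3 (adjusted p = 0.0586 to 0.0681), and in Fyn-null mice without any of its pools but saline replicate 4 (0.0537 to 0.112). Over both genotypes Mal passed without any of the 12 arrays, Car2 without 4 of 12 and Evi2a without 3 of 12.

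Small differences changed direction. With arrays left out in turn, Mbp with ethanol in Fyn-null mice ran from -0.059 to 0.160, Mobp there from -0.067 to 0.103 and at baseline from -0.023 to 0.145, and Tspan2 at baseline from -0.224 to 0.067 (0.081 without both doubted pools). With averaged probe sets Mobp at baseline was -0.106 and Ndrg1 in the interaction -0.078. With the ratio in the model Tspan2 was -0.077 with ethanol in Fyn-null mice and -0.039 in controls. The cause was not tested.

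Counts over all probe sets moved more widely: ethanol in controls called 355, but 36 with the block, 18 with only the 2 groups compared, 24 with the ratio and 147 without both doubted pools. Ethanol in Fyn-null mice called 99, but 26 with the block, 41 with the ratio, 54 without both doubted pools and 2781 with array weights. Ethanol over both genotypes called 1686, but 710 with the block and 110 with the ratio. Genotype after ethanol called 0, but 193 with only the 2 groups compared, 3975 with array weights and 260 without both doubted pools, which gave 44 at baseline and 669 over both treatments.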
